A study of Rattus norvegicus with 12 samples.

Results

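The keratins described here are 10 genes, Krt5, Krt7, Krt8, Krt13, Krt14, Krt15, Krt17, Krt18, Krt19 and Krt20. They were selected by gene name, and each had 1 entry in both deposited expression tables, which list 30 keratin symbols among 22132 entries and 47 among 32623. RNA was sequenced from kidneys of 12 male wild-type SD rats, bought at 8 weeks old, in 4 groups of 3 different animals. Rats of the adenine group received adenine at 220 mg/kg per day by gavage for 3 weeks and those of the control group received saline over the same 3 weeks. In the UUO group (unilateral ureteral obstruction) the left ureter was ligated, and kidneys were taken 2 weeks later together with those of sham-operated rats. Adenine forms crystals that injure tubules throughout the kidney, whereas ligation blocks the outflow of a single kidney and widens its pelvis. Levels are FPKM, fragment numbers scaled by the length of the transcript and by library size. The number of reads behind a value is unknown, so the spread between 3 rats is its only measure of error. The control and adenine groups stand in one table and the sham and UUO groups in the other. They were processed separately, and changes were therefore calculated within each table.

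Keratins are the intermediate filament proteins of epithelial cells. A type I keratin pairs with a type II keratin to form a filament, which is anchored at desmosomes between cells and at hemidesmosomes on the basement membrane. Krt8 (type II) with Krt18 (type I) is the pair of simple, one-layered epithelia such as renal tubules, and Krt7 (type II) and Krt19 (type I) are the keratins of ducts, including the collecting duct, and of the urothelium that lines the renal pelvis and ureter. Krt5 (type II) with Krt14 and Krt15 (type I) is found in the basal layer of stratified epithelia, Krt17 (type I) is a keratin of basal cells and of wounded epithelium, Krt13 (type I) belongs to the layers above the basal layer of non-cornified stratified epithelia, and Krt20 (type I) marks the surface cells of the urothelium and gut.

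The member genes lie in the keratin clusters of rat chromosomes 7 and 10. In the RefSeq gene order (assembly GRCr8), Krt8 and Krt18 stand on chromosome 7 with 1 uncharacterised gene between them, and Krt13, Krt15 and Krt19 follow each other on chromosome 10. RefSeq names 7 further loci as Krt18 copies and 1 as a Krt8 copy, so the values of both could hold fragments shared with these copies. RefSeq promoter sequences matched 4 members, Krt5, Krt8, Krt18 and Krt20. The 250 bases before the transcription start of Krt8 and Krt18 are shown because these 2 genes form a pair and were the members that differed in both models, and those of Krt5 as a gene of the basal group. Sequences run 5′ to 3′ on the gene's strand, with coordinates chr7:135010340-135010589 (minus strand) for Krt8, chr7:135035918-135036167 (plus strand) for Krt18 and chr7:134730570-134730819 (minus strand) for Krt5. Capitals mark matches, on either strand, to the GC box GGGCGG. Such boxes are bound by Sp1 family factors. Capitals also mark the TATA element TATAAA.
Krt8: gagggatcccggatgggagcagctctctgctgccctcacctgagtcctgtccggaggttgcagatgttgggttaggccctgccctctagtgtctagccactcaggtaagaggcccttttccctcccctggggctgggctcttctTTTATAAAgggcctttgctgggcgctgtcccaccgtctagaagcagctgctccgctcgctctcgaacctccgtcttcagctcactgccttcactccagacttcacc
Krt18: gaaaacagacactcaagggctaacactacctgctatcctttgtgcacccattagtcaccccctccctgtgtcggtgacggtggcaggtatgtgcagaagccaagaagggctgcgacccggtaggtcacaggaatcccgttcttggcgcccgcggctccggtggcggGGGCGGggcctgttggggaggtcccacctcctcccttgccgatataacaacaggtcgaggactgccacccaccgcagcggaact
Krt5: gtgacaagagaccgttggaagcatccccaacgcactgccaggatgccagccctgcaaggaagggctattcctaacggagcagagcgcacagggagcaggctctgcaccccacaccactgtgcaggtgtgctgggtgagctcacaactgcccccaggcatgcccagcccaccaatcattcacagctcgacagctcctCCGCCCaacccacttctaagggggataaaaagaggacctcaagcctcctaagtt
The Krt8 window held 2 overlapping TATA matches, one on each strand, starting at -106 and -104 from the start site, and no GC box. The Krt18 window held 1 GC box at -84 and no TATA match, and that of Krt5 held 1 GC box on the opposite strand at -54. Krt20 had 1 TATA match at -49. None of the 4 windows held TGANTCA, the site of AP-1 factors. Over the same 250 bases of all 33469 promoters, these letters were present in 6.34% for AP-1, 30.5% for the GC box and 12.9% for the TATA box.

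Before the members are described, features of the libraries that touch them are given. All 8 kidney markers, among them Lrp2 and Slc34a1 of the proximal tubule and Umod of the thick ascending limb, were present in every sample. Control rat 2 stood apart from the other controls. Its Slc12a3, the thiazide-sensitive transporter of the distal tubule, was 12.9 FPKM against 197 and 164. Its Spp1 (osteopontin, which is high in injured tubules) was 552 against 49.5 and 56.2, and its Upk1a, a urothelial plaque protein, was 3.45 against 0.409 and 0.883. The sum of FPKM over all entries was 564972 to 582725 in the control and 468389 to 487770 in the adenine group, and 619664 to 630244 in the sham and 528811 to 539011 in the UUO group. The median log2 fold change over all tested entries was 0.30 after adenine and 0.62 after obstruction. Median-of-ratios scaling, which places the typical entry at the same level in all samples of a table, lowered these medians by 0.29 and 0.58, so the fold changes of the tested members are given with this scaling as well.

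The 10 keratins together stood higher in both models than in their controls, and highest in obstructed kidneys. Their summed FPKM was 213, 228 and 194 in the 3 control rats and 328, 371 and 393 in the adenine rats. It was 216, 307 and 241 in the sham rats and 969, 1105 and 1108 in the UUO rats. In neither model did the groups overlap. The exact permutation test cannot give a two-sided p under 0.1 with 3 rats against 3, so single values were tested in the fit over all genes. The members held 0.0343% to 0.0391% of all FPKM in control, 0.0673% to 0.0839% in adenine, 0.0349% to 0.0492% in sham and 0.180% to 0.210% in UUO kidneys. They made up 92.2% to 97.0% of the FPKM of all keratins in the 12 samples.

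**Figure D1:**
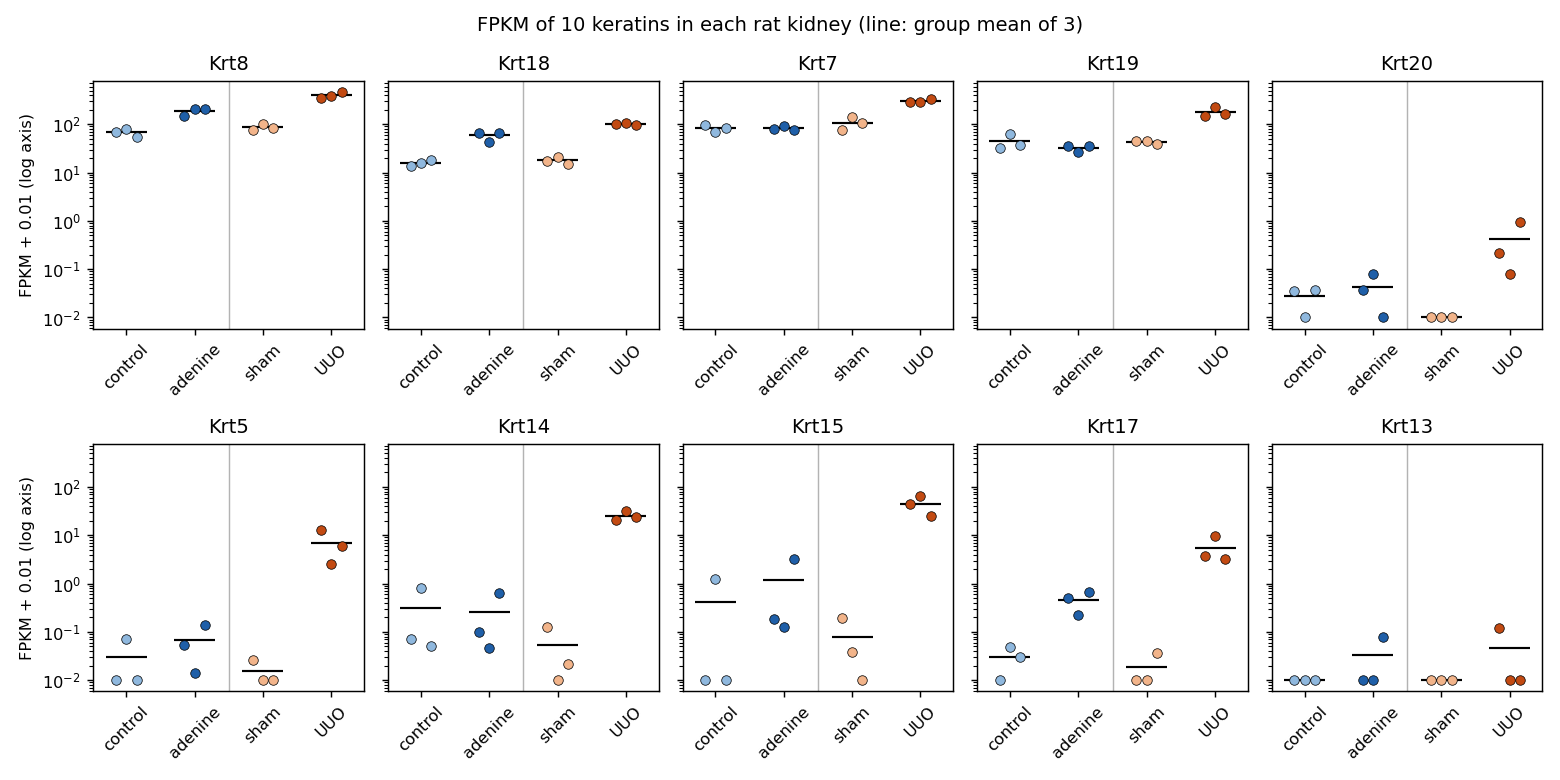
FPKM of each of the 10 keratins in each of 12 rat kidneys, on a log axis after addition of 0.01; points are rats, horizontal lines group means (n = 3), and the grey line parts the 2 separately processed tables. Krt8 and Krt18 lie higher in adenine and in UUO kidneys than in their controls, Krt7 and Krt19 do so in UUO kidneys and overlap with the controls in adenine kidneys, and Krt5, Krt14, Krt15 and Krt17 reach 2.57 to 63.8 FPKM in UUO kidneys.

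An entry was tested if 3 or more of the 6 samples in its table reached an FPKM of 0.5, with limma on log2(FPKM + 0.1). A gene was called when its Benjamini-Hochberg adjusted p was under 0.05 and its log2 fold change was at least 2 in size. In the adenine data 4 members could be tested, Krt7, Krt8, Krt18 and Krt19. None of the 4 was called with limma, where 10.7% of all 15029 tested entries were called upward. By adjusted p alone 2 members were higher, Krt8 and Krt18, and the same 2 had an unadjusted p under 0.05, beside 39.6% of all entries higher by adjusted p alone. These 2 members also lay above every control rat, as did 45% of all entries. In the UUO data 8 members were tested and 7 were called upward, Krt5, Krt8, Krt14, Krt15, Krt17, Krt18 and Krt19, beside 13.2% of 15043 entries. By adjusted p alone 8 of 8 were higher, beside 56.1% of all entries, and 8 of 8 lay above every sham rat, beside 60% of all entries. Krt5, Krt14, Krt15 and Krt17 passed the minimum FPKM only through the UUO rats, so they could be tested only because they differed. Of the 4 members measurable in both groups, 3 were called, Krt8, Krt18 and Krt19, and under median-of-ratios scaling none of these 3 reached the fold threshold. Over Krt7, Krt8, Krt18 and Krt19, the median log2 fold change was 0.74 after adenine and 2.11 after obstruction.

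Among the simple-epithelial pair, Krt8 was 70.0, 78.1 and 55.2 FPKM in control rats and 145, 207 and 209 in adenine rats. Every adenine rat was above every control rat. Krt8 was 2.75-fold higher after adenine, and its log2 fold change was 1.46 ± 0.19 (SE, n = 3 per group, limma adjusted p = 0.000884). The 95% interval of the log2 fold change, 1.00 to 1.92, lay below the threshold of 2, and the value was 1.17 under median-of-ratios scaling. In the other table Krt8 was 76.6, 104 and 81.8 FPKM in sham rats and 346, 379 and 460 in UUO rats, again without overlap. It rose 4.52-fold, with a log2 fold change of 2.18 ± 0.15 (SE, n = 3 per group, limma adjusted p = 4.87e-05) that was 1.58 after median-of-ratios scaling. Counted from the highest FPKM, Krt8 ranked 943 to 1257 among all entries in control, 291 to 412 in adenine, 779 to 1000 in sham and 136 to 195 in UUO kidneys.

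Its partner Krt18 was 13.6, 15.5 and 18.3 FPKM in control and 67.5, 43.6 and 65.9 in adenine rats. The groups were apart, with adenine rat 2 the lowest of the treated animals. The log2 fold change was 1.88 ± 0.20 (SE, n = 3 per group, limma adjusted p = 0.000371), a 3.68-fold difference just under the fold threshold. Without adenine rat 2 it was 2.08 and Krt18 was called, and with median-of-ratios scaling it was 1.59. In sham rats Krt18 was 17.7, 20.7 and 15.2 FPKM and in UUO rats 101, 105 and 95.9. The UUO rats differed by less than 10 FPKM from each other and were all above the sham rats. Krt18 rose 5.65-fold, with a log2 fold change of 2.50 ± 0.12 (SE, n = 3 per group, limma adjusted p = 1.64e-05), and 1.899 after median-of-ratios scaling. Among the members with measurable levels in sham kidneys this was the largest fold change.

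Krt7, the type II keratin of ducts and urothelium, was 96.4, 69.0 and 83.0 FPKM in control and 79.9, 92.5 and 77.1 in adenine rats, and the adenine values lay within the range of the controls. The log2 fold change was 0.01 ± 0.15 (SE, n = 3 per group, limma adjusted p = 0.939), with a 95% interval from -0.34 to 0.37. Its sign turned to -0.11 without control rat 2, to -0.064 without adenine rat 2 and to -0.28 under median-of-ratios scaling. In sham rats Krt7 was 75.6, 139 and 105 FPKM and in UUO rats 295, 283 and 329. All UUO rats were above all sham rats, with the wider spread in the sham group. The log2 fold change was 1.55 ± 0.21 (SE, n = 3 per group, limma adjusted p = 0.000687), a 2.92-fold difference that was under the fold threshold and therefore not called, and it was 0.95 after median-of-ratios scaling.

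Krt19, the smallest keratin and the type I keratin that accompanies Krt7 in ducts, was 32.6, 63.1 and 37.1 FPKM in control and 34.7, 26.8 and 36.0 in adenine rats. The groups overlapped, and the highest value was that of control rat 2, the library that stood apart. The log2 fold change was -0.40 ± 0.26 (SE, n = 3 per group, limma adjusted p = 0.228, 95% interval -1.02 to 0.23), and it was -0.11 without control rat 2 and -0.69 under median-of-ratios scaling. In sham rats Krt19 was 46.1, 44.0 and 38.9 FPKM and in UUO rats 145, 231 and 163. UUO rat 2 was the highest and all 3 were above the sham rats. Krt19 rose 4.10-fold, with a log2 fold change of 2.04 ± 0.18 (SE, n = 3 per group, limma adjusted p = 0.0001). This lay close to the fold threshold, and Krt19 was no longer called without UUO rat 2 (1.84), without sham rat 3 (1.96), with quantile normalization (1.93) or with median-of-ratios scaling (1.44).

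Krt20, the keratin of surface urothelial cells, was tested in neither table. It was 0.0255, 0 and 0.0272 FPKM in control and 0.0277, 0.0691 and 0 in adenine rats, with overlapping groups. In the UUO table it was listed at 0.0001, the lowest value of that table, in all sham rats and at 0.208, 0.0705 and 0.936 in UUO rats. The UUO values were all above the sham values but spread over more than a factor of 10. Fitted without the minimum FPKM, Krt20 was not called in the UUO table (limma adjusted p = 0.129), where 6.14% of 32623 entries were called upward.

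**Figure D2:**
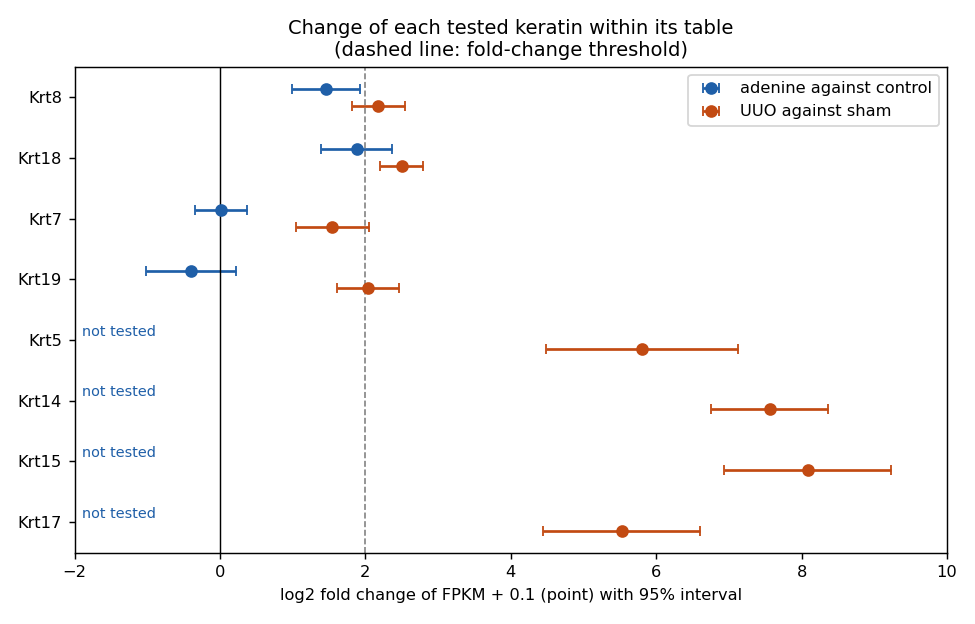
Log2 fold change of FPKM + 0.1 for each keratin that reached the minimum FPKM, within the adenine table (blue) and the UUO table (orange); points are limma estimates, bars 95% intervals (n = 3 per group), and the dashed line is the fold threshold of 2. Krt8 and Krt18 have intervals above 0 in both models, Krt7 and Krt19 in UUO alone, and the 4 basal keratins have UUO estimates from 5.52 to 8.08.

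The basal keratins were almost undetected in sham kidneys. Krt5 was 0.0160, 0.0001 and 0.0001 FPKM in sham rats and 12.6, 2.57 and 5.95 in UUO rats, with no overlap and UUO rat 2 the lowest. The log2 fold change of FPKM + 0.1 was 5.81 ± 0.55 (SE, n = 3 per group, limma adjusted p = 0.000141). Krt14, its type I partner, was 0.115, 0.0001 and 0.0120 FPKM in sham and 21.1, 31.2 and 24.5 in UUO rats. Here UUO rat 2 was the highest, and the groups were far apart, with a log2 fold change of 7.56 ± 0.34 (SE, n = 3 per group, limma adjusted p = 1.32e-05). These estimates depend on the pseudocount of 0.1, since the sham values lie below it. With pseudocounts of 1 and 0.01 they ran from 2.79 to 8.71 for Krt5 and from 4.66 to 9.70 for Krt14, and both genes were called at either end.

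Krt15, a further type I keratin of basal cells, was 0.181, 0.0287 and 0.0001 FPKM in sham rats and 44.3, 63.8 and 25.3 in UUO rats. It was the most abundant of the basal keratins in all UUO rats, although its margin over Krt14 in UUO rat 3 was below 1 FPKM. The log2 fold change was 8.08 ± 0.48 (SE, n = 3 per group, limma adjusted p = 2.73e-05), and 5.32 to 9.94 over the 2 other pseudocounts. Krt17, the wound-associated keratin, was 0.0001, 0.0001 and 0.0274 FPKM in sham and 3.66, 9.64 and 3.29 in UUO rats. UUO rat 2 was the highest, the groups did not overlap, and the log2 fold change was 5.52 ± 0.45 (SE, n = 3 per group, limma adjusted p = 7.99e-05), and 2.56 to 8.29 over the 2 other pseudocounts. All 4 basal keratins were still called under median-of-ratios scaling, with log2 fold changes of 5.49 for Krt5, 7.19 for Krt14, 7.68 for Krt15 and 5.20 for Krt17. Krt13 was listed at 0.0001 in all sham rats and in UUO rats 2 and 3, and was 0.112 FPKM in UUO rat 1.

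In the adenine table none of the basal keratins reached the minimum FPKM. Krt5 was 0, 0.0604 and 0 FPKM in control and 0.0444, 0.00428 and 0.126 in adenine rats, with overlapping groups. Krt14 was 0.0604, 0.786 and 0.0420 FPKM in control and 0.0916, 0.0364 and 0.614 in adenine rats, and Krt15 was 0, 1.21 and 0 in control and 0.173, 0.117 and 3.27 in adenine rats. For both genes the high values came from 1 rat of each group, control rat 2 and adenine rat 3. Krt13 was above 0 only in adenine rat 3, at 0.0695 FPKM. Krt17 was the exception among the low members, at 0, 0.0396 and 0.0204 FPKM in control and 0.490, 0.217 and 0.658 in adenine rats without overlap. In a fit without the minimum FPKM its log2 fold change was 2.13 ± 0.37 (SE, n = 3 per group, limma adjusted p = 0.00492) and it was called, beside 8.05% of 22132 entries called upward. These levels of Krt17 were below 1 FPKM, and the read support behind them is unknown.

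The make-up of the keratins was compared as shares of their summed FPKM in each rat. Krt7, Krt8, Krt18 and Krt19 made up at least 98.8% of the summed FPKM of the members in each of the 9 control, adenine and sham kidneys, and 90.3% to 94.6% in UUO kidneys. The 4 basal keratins held 5.32% to 9.70% in UUO, 0.101% to 1.19% in adenine, 0.0284% to 0.922% in control and 0.00944% to 0.144% in sham kidneys. In all UUO rats this share was above that of every other rat, a comparison of shares within a sample. In FPKM, the order of the group means in UUO kidneys was Krt8, Krt7, Krt19, Krt18, Krt15, Krt14, Krt5, Krt17, Krt20 and Krt13. Krt15 and Krt14 overlapped between rats, as did Krt5 with Krt17 and Krt20 with Krt13, and the other neighbours in this order did not. In adenine kidneys Krt8 stood first, and Krt7 (77.1 to 92.5 FPKM) and Krt18 (43.6 to 67.5) followed without overlap.

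The ratio of Krt8 to Krt18 FPKM was 5.16, 5.04 and 3.02 in control and 2.16, 4.76 and 3.17 in adenine rats, and 4.33, 5.01 and 5.39 in sham and 3.43, 3.61 and 4.79 in UUO rats. The groups of both models overlapped, so no shift within the pair could be shown. The ratio of Krt8 to Krt7, looked at after the values had been seen, was 0.665 to 1.13 in control and 1.82 to 2.71 in adenine kidneys, and 0.749 to 1.01 in sham and 1.17 to 1.40 in UUO kidneys. For this ratio the groups did not overlap in either model, and it was given no test.

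**Figure D3:**
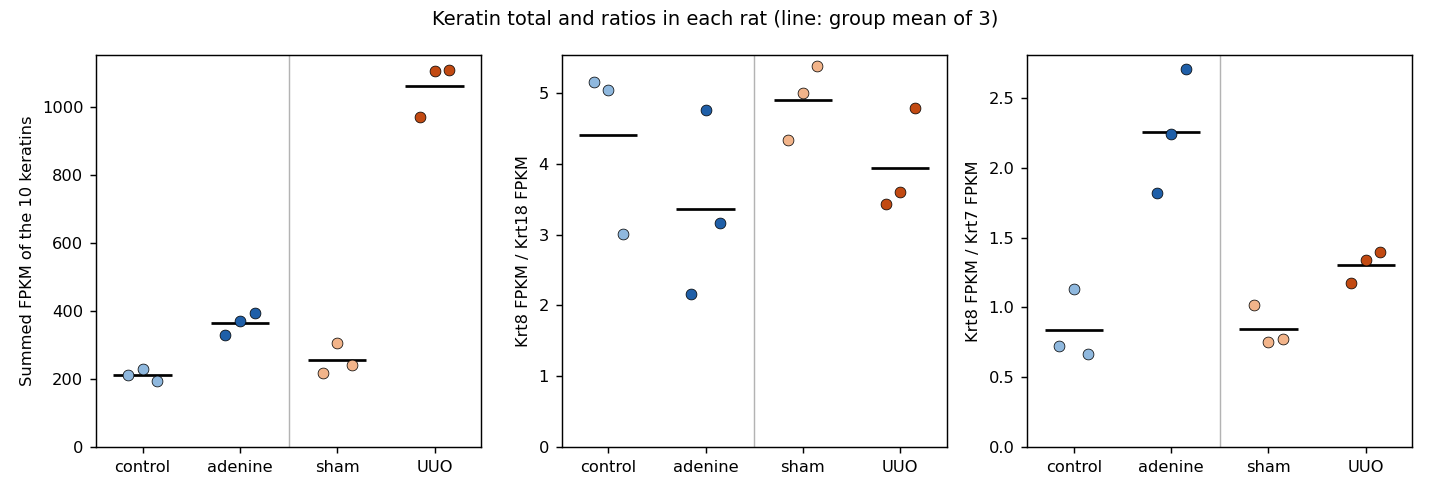
Summed FPKM of the 10 keratins (left), ratio of Krt8 to Krt18 FPKM (middle) and ratio of Krt8 to Krt7 FPKM (right) in each of 12 rats; points are rats, lines group means (n = 3), and the vertical grey line parts the 2 tables. The sum is 969 to 1108 in UUO kidneys against 216 to 307 in sham kidneys, the Krt8 to Krt18 ratio overlaps within both models, and the Krt8 to Krt7 ratio is highest in adenine kidneys.

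To ask which members changed differently in the 2 models, the log2 fold change in the adenine table was subtracted from that in the UUO table, and the difference was tested for all 13486 symbols tested in both. Differences of at least 2 with an adjusted p under 0.05 were found for 2.88% of these symbols, and for 1.82% with the higher value in UUO. Of the 4 members tested in both tables, 1 was called, Krt19. Its log2 fold change was higher in UUO by 2.43 ± 0.31 (SE, adjusted p from the limma fits = 0.000312, 95% interval 1.75 to 3.11), and by 2.12 under median-of-ratios scaling (adjusted p from limma = 0.0013). For Krt7 the difference was 1.53 ± 0.26 (SE, adjusted p from limma = 0.00149), under the threshold of 2. Krt8 and Krt18 differed less between the models. The difference was 0.72 ± 0.25 for Krt8 (SE, adjusted p from limma = 0.0466, 95% interval 0.18 to 1.25), and under median-of-ratios scaling its adjusted p was 0.263. For Krt18 it was 0.62 ± 0.24 (SE, adjusted p from limma = 0.0672, 95% interval 0.11 to 1.13). Without the minimum FPKM the basal keratins could be set against each other, and the differences were 5.45 for Krt5, 7.60 for Krt14, 6.77 for Krt15 and 3.39 for Krt17, with adjusted p from limma of 0.0012, 0.00101, 0.0122 and 0.00553. All 4 passed both thresholds, beside 1.89% of 19066 symbols called as higher in UUO in the same fit, whereas Krt20 (1.77, adjusted p from limma = 0.124) and Krt13 (0.11, adjusted p from limma = 0.886) did not. The models differ in agent, duration and table, and these cannot be told apart.

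For each member tested in both tables, the symbols with the highest Pearson correlation of log2(FPKM + 0.1) over the 12 samples were sought, after the mean of the control or sham group had been subtracted. For Krt8 these were Rnf2, Cd69 and P2ry12 (r = 0.994 for each), and for Krt18 RGD1305464, Herpud2 and Dcps (r = 0.996, 0.995 and 0.992). For Krt7 they were Ppm1f, Rnf44 and Nelfb (r = 0.983, 0.983 and 0.980), and for Krt19 the closest symbol was Ankrd54 (r = 0.982). Between members, r was 0.95 for Krt8 with Krt18, 0.85 for Krt7 with Krt19 and 0.59 for Krt18 with Krt19. It was 0.75 for Krt7 with Krt8, 0.68 for Krt7 with Krt18 and 0.63 for Krt8 with Krt19. Many other symbols were closer than a partner. By r among 13486 symbols, Krt18 ranked 1028 for Krt8, and Krt8 ranked 1175 for Krt18. Krt19 ranked 966 for Krt7, and Krt7 ranked 830 for Krt19. The 12 points fall into 4 groups and share 2 tables, so these values mainly describe the pattern over groups.

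Most other keratins were low. Of these, 20 symbols were found in the adenine table and 37 in the UUO table, of which 5 and 4 reached the minimum FPKM, and 27 of the 37 were at the lowest value in all sham rats. In each model 1 was called upward and none downward, with medians of 0.07 and 1.34. Over all entries 10.7% and 13.2% were called upward. Both called keratins, Krt75 in adenine and Krt79 in UUO, passed the minimum only through the model rats. Of the other 4 tested in adenine and 3 in UUO, none was called (medians -0.05 and 1.16). Krt75, a keratin of the hair follicle, was 0.0911, 0 and 0 FPKM in control and 2.13, 1.54 and 2.87 in adenine rats, with a log2 fold change of 4.16 (limma adjusted p = 0.000239). Krt79 was called in UUO, with a log2 fold change of 2.75 (limma adjusted p = 0.0035). In the other model each missed the minimum. Fitted without the minimum, Krt75 was called in UUO (log2 fold change 2.13, limma adjusted p = 0.0246) and Krt79 was not called in adenine (0.57, limma adjusted p = 0.408). Krt80 was the most abundant of these keratins, at 9.82, 13.0 and 15.4 FPKM in sham and 30.1, 21.7 and 33.4 in UUO rats without overlap, a level within the range of Krt14 and Krt15 in UUO. Its log2 fold change was 1.16 (limma adjusted p = 0.00286), under the fold threshold, and 0.56 after median-of-ratios scaling. Of 16 other intermediate filament genes, 13 were tested in each table. In both, 3 rose (Vim, Des and Lmnb1), beside 10.7% and 13.2% of all entries called upward, and 2 fell (Bfsp2 and Nefm). Under median-of-ratios scaling Lmnb1 was no longer called in adenine (1.92), and Des and Lmnb1 were no longer called in UUO (1.83 and 1.70). Vim (vimentin, the filament of mesenchymal cells and dedifferentiated tubules) rose by 3.93 in the adenine and by 3.24 in the UUO model on the log2 scale, more than any simple keratin.

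Genes of the junctions that anchor keratins were examined from a list of 22 desmosome and hemidesmosome genes. In the adenine data 4 of 17 tested were called upward, beside 10.7% of all entries, and none downward. The median log2 fold change was 1.11. In the UUO data 8 of 16 were called upward, beside 13.2% of all entries, and none downward, with a median of 1.76. Pkp1 in both models, and Dsg3 in adenine, passed the minimum FPKM only through the model rats. Of the other 15 tested in each model, 2 were called in adenine (median 0.42) and 7 in UUO (median 1.31). Among the 7, Col17a1 was 0.398, 0.208 and 0.802 FPKM in sham rats and also needed the UUO rats to be tested. Of the full list, 3 were called upward in adenine and 4 in UUO under median-of-ratios scaling. Ppl (periplakin, which links keratins to the plaque), Pkp1 (plakophilin 1) and Itgb4 (the hemidesmosomal integrin subunit) rose in both models. Pkp1 was 0.0239, 0.278 and 0.254 FPKM in control, 2.39, 2.45 and 2.31 in adenine, 0.127, 0.208 and 0.0608 in sham and 5.54, 15.1 and 6.27 in UUO rats. UUO rat 2, the highest for Krt14, Krt15 and Krt17, was also the highest for Pkp1. Itgb4 rose by 2.28 in the adenine and by 3.93 in the UUO model on the log2 scale. Plec (plectin) rose by 2.37 in UUO and was 1.72 higher in adenine kidneys, under the threshold. Pkp3 was lower in adenine kidneys, with a log2 fold change of -1.53 (limma adjusted p = 0.000201), under the threshold in size. Dsp (desmoplakin) and Jup (plakoglobin), which every desmosome uses, were called in neither model. Of 14 epithelial adhesion and identity genes, such as Cdh1, Epcam and Tjp1, none was called in adenine, beside 10.7% of all entries called upward. In UUO 2 rose, Cldn7 and Elf3, beside 13.2% of all entries, and neither was called under median-of-ratios scaling (1.84 and 1.73).

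Markers of basal and stratified epithelium are given beside the basal keratins. In UUO kidneys 11 of 14 listed genes were tested. Of these, 7 were called upward, beside 13.2% of all entries, and 1, Gjb2 (a gap junction connexin), fell. Of the 11, 2 (Tp63 and Grhl3) were below the minimum in every sham rat, and of the other 9, 5 rose. Among these 5, Anxa8 was 0.274, 0.502 and 0.0001 FPKM in sham rats, Sprr1a 1.44, 0.242 and 0.0702, and Lypd3 0.635, 0.452 and 0.465. These 3 also needed the UUO rats to reach the minimum in 3 samples. Tp63, the transcription factor of basal cells, was 0.0224, 0.0001 and 0.0001 FPKM in sham and 0.905, 0.802 and 1.03 in UUO rats, without overlap. Sfn (stratifin) was 2.60, 2.04 and 1.46 FPKM in sham and 57.0, 106 and 60.0 in UUO rats, and UUO rat 2 was again the highest. In the adenine data 6 of the list were tested. Here 3 were called upward (Sfn, Lypd3 and Klf5), beside 10.7% of all entries, and 1 fell (Gjb2). Lypd3 was 0.540, 0.276 and 0.301 FPKM in control rats and Klf5 0.446, 1.84 and 0.403. Both needed the adenine rats to be tested. Tp63 stayed at or below 0.0633 FPKM in all control and adenine rats. Sfn rose by 3.33 in the adenine model on the log2 scale, where Krt5 and Krt14 were below 1 FPKM in all rats.

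Because Krt5, Krt7, Krt19 and Krt20 are also keratins of urothelium, the 12 listed urothelial markers are given beside them. In UUO kidneys 11 of 12 were called upward, beside 13.2% of all entries, and none fell. However, 7 of these were below the minimum in every sham rat and could be tested only through the UUO rats. Of the other 5, 4 rose, with a median log2 fold change of 3.69 over the 5. Upk1a (1.57, 0.440 and 0.607 FPKM in sham rats) and Upk3bl1 (1.28, 0.845 and 0.382) also needed the UUO rats to be tested. The summed FPKM of the 12 was 12.04 to 21.6 in sham and 153 to 221 in UUO rats. The uroplakins that define surface urothelium were low in sham kidneys, where Upk3a was 0.320, 0.0001 and 0.190 FPKM, and reached 51.3, 28.5 and 49.1 in UUO rats. Upk1b rose by 6.69 and Upk2 by 6.38 on the log2 scale. Foxa1 was the only one of the 12 at the lowest value in all sham rats. UUO rat 2 had the lowest Upk1a (9.84 against 27.6 and 32.1 FPKM), the lowest Upk2 and the lowest Krt5 and Krt20 of its group, and the highest Krt14, Krt15, Krt17 and Krt19. In the adenine data 6 of the 12 were tested, and 2, Psca and Upk3bl1, were called upward, beside 10.7% of all entries. For Upk3bl1 the groups overlapped, at 0.104, 4.68 and 0.0742 FPKM in control and 11.1, 4.34 and 14.2 in adenine rats. It reached the minimum in 3 samples only through the adenine rats. The summed FPKM of the 12 was 13.3 to 25.4 in control and 98.0 to 324 in adenine rats, of which Psca made up 83.0 to 287. Upk1a, at 0.409, 3.45 and 0.883 FPKM in control and 1.56, 0.628 and 1.83 in adenine rats, and Upk2 were not called there, and Upk1b, Upk3a and Upk3b did not reach 0.5 FPKM in 3 samples. In bulk tissue a larger number of cells of a type and more RNA per cell cannot be told apart, and the part of urothelial tissue in the keratin changes was not tested.

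**Figure D4:**
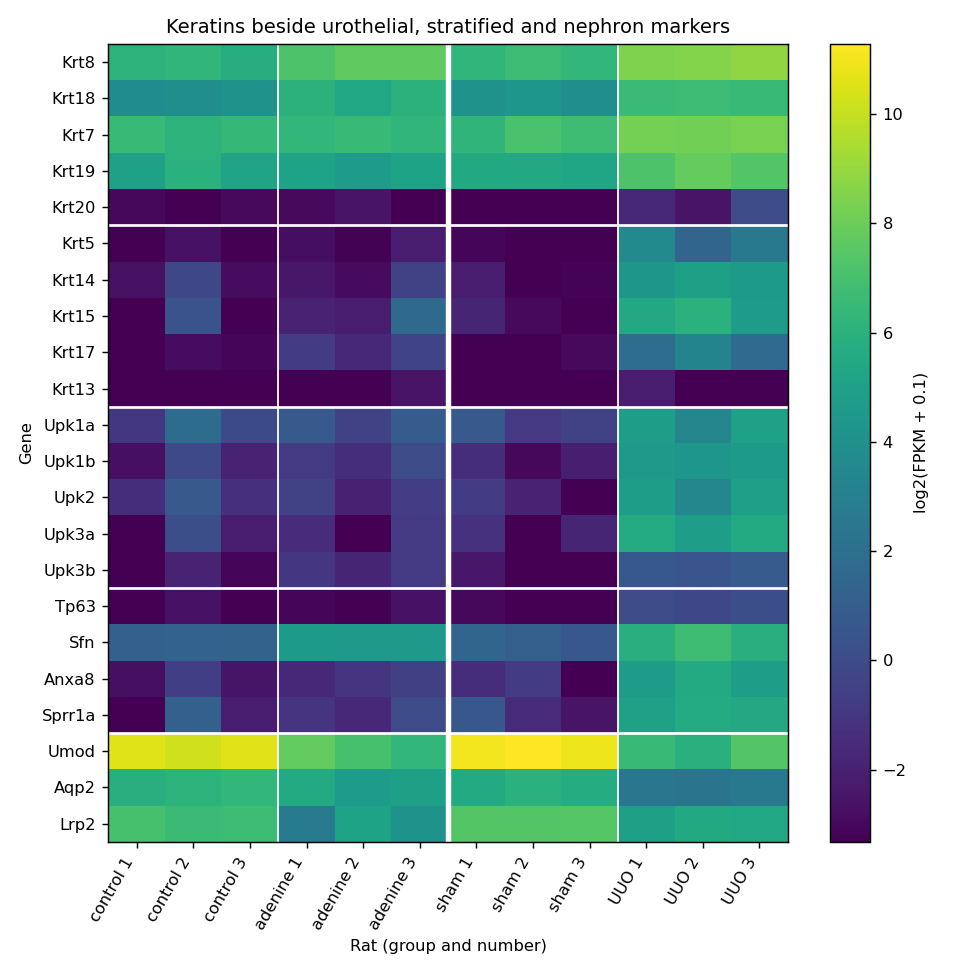
Heatmap of log2(FPKM + 0.1) for the 10 keratins (top), urothelial markers, stratified-epithelium markers and nephron markers (bottom) in each of 12 rats; the thick white line parts the 2 separately processed tables. In UUO rats Krt5, Krt14, Krt15 and Krt17 are high together with the uroplakins, Tp63, Sfn, Anxa8 and Sprr1a, whereas in adenine rats Krt8, Krt18 and Sfn are raised and each uroplakin shown stays below 2 FPKM. The heatmap holds only some genes of each list. Among those not shown, Gjb2 and Ovol1 of the stratified list were lower in both models. Psca and Upk3bl1 of the urothelial list, also not shown, were called upward in both, although the control and adenine values of Upk3bl1 overlapped.

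Mesothelial cells of the renal surface also contain Krt7, Krt8, Krt18 and Krt19. Of 3 mesothelial markers tested in UUO, 2 rose, Msln (mesothelin) by 7.22 on the log2 scale and Upk3b, which is on the urothelial list as well. Upk3b was below the minimum in every sham rat and could be tested only through the UUO rats. Of the other 2, 1 rose, Msln, where 13.2% of all entries were called upward. Msln was 0.594, 0.0001 and 0.0001 FPKM in sham rats, so it also needed the UUO rats to be tested. The summed FPKM of the list was 5.39 to 8.46 in sham and 28.8 to 45.5 in UUO rats, and 2.61 to 10.9 in control and 4.18 to 7.03 in adenine rats. Lrrn4 and Bnc1 were at the lowest value in all sham rats. In the adenine model Msln rose by 3.08, from at most 0.954 FPKM to 1.07 to 3.99. The part of mesothelium in the keratin values was not tested.

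Genes of injured tubules are given beside Krt8 and Krt18, which were higher in both models. Of 11 tested, 7 were called upward and none downward in each model, with median log2 fold changes of 2.41 and 3.24. Over all entries 10.7% were called upward in adenine and 13.2% in UUO. Prom1 was lower in both models, with a log2 fold change of -1.52 in each, under the threshold in size. Under median-of-ratios scaling 6 were called upward in each model, and Prom1 was called downward in UUO (-2.12). Havcr1 (kidney injury molecule 1) rose by 6.43 in the adenine and by 6.80 in the UUO model, and Lcn2 (neutrophil gelatinase-associated lipocalin) by 7.08 and 5.99. Sox9 was called in neither model. Of the 8 kidney markers 3 fell in the adenine model and 6 in UUO. Over all 15029 entries tested in adenine 2360 were called, 1604 of them upward. In UUO 2613 of 15043 were called, 1980 of them upward. Umod (uromodulin of the thick ascending limb) fell by 3.43 after adenine and fell by 4.47 in UUO on the log2 scale. Aqp2, the water channel of collecting duct principal cells, where Krt7 and Krt19 are also found, fell by 3.36 in UUO and was 0.98 lower in the adenine group, under the threshold. In UUO rats, where Krt7 and Krt19 were highest, Aqp2 was 4.86 to 5.79 FPKM against 48.1 to 63.9 in sham rats. The part of tubular injury or of a loss of nephron cells in the keratin values was not tested.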

How the data were processed

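Kidney poly(A) RNA of 12 rats was sequenced by a strand-marking protocol. The authors deposited FPKM values per gene in 2 tables, control with adenine and sham with UUO, and the fragments behind them were counted before deposit. The submitters' processing notes name cutadapt 1.9, HISAT2 2.0.4, StringTie 1.3.4d, edgeR and DESeq2. The genome build and annotation are not given in the sources used here, and how multiply mapped fragments were shared between keratin copies is not stated. The tables were used as deposited, with a lowest FPKM of 0 in the first and 0.0001 in the second.

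Samples were grouped by their labels, which call the rats biological replicates. The members, gene lists and tests were chosen with earlier results of these data known. Values were analysed as log2(FPKM + 0.1), for entries of at least 0.5 FPKM in at least 3 of 6 samples, with limma 3.58.1 (lmFit, eBayes with a trend) in R 4.3.3. Each table was fitted alone. The p-values were adjusted by Benjamini-Hochberg over all tested entries, and a call needed both an adjusted p below 0.05 and a log2 fold change of 2 or more in size, the thresholds stated in the methods of the paper. For the difference between models, the log2 fold changes were subtracted and divided by the root of the summed squared errors, and the p came from the t distribution with the degrees of freedom of both fits, adjusted over 13486 symbols. Named genes were the members, genes of the fixed lists and, for each member tested in both tables, the 3 most correlated symbols. A repeated symbol was left out of list counts, and 1 gene of the lists is not reported here by name. Simulated data with known changes were used to test each fit. Other steps used Python 3.11.15, numpy 2.4.6, pandas 2.3.3, scipy 1.17.1 and matplotlib 3.10.9.

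Results were recomputed with no filter, with a minimum of 1 FPKM, with pseudocounts of 0.01 and 1, after quantile normalization, median-of-ratios scaling or rescaling of FPKM to equal sums, and with eBayes without the trend, a replicate block, the log2 ratio of mean FPKM, no fold threshold, or each sample left out in turn. Leaving out a sample while the same entries were tested was added after the data had been seen. The FPKM values carry no counts, so depth is unknown and no counting interval was calculated. Promoter windows came from RefSeq tables of assembly GRCr8 and were not tied to the build of the files. Protein sequences were not analysed here.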

Additional observations from a re-analysis of the deposited data

Results flagged for a closer look

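The test of the difference between the adenine and UUO models called 1 of the 4 keratins tested in both tables. It also called 4 marker genes from the lists set beside them, while most of the listed genes tested in both tables were not called. Over all 13486 symbols tested, 2.88% were called in either direction. For Krt19 the log2 fold change in UUO exceeded that in adenine by 2.43 (adjusted p from limma = 0.000312). It was higher than in every sham rat in 3 of 3 UUO rats, and in 0 of 3 adenine rats it was above every control rat. The uroplakins Upk1a and Upk2, of surface urothelium, had differences of 4.46 (adjusted p from limma = 0.00464) and 6.75 (adjusted p from limma = 0.000683), and Msln of mesothelium had a difference of 4.13 (adjusted p from limma = 0.0231). In the UUO table Upk2 passed the minimum FPKM only through the UUO rats, and Msln reached it in sham rat 1 alone (0.594 FPKM) of its sham group. Aqp2 of the collecting duct went the other way, with a difference of -2.38 (adjusted p from limma = 0.000131). The outlying values of single rats could not be screened, because groups of 3 are too small for such a rule.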

How the results depend on the processing

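For 12 member fold changes, 264 alternatives in which the gene was still tested were counted. Fits without a UUO rat in which Krt5, Krt14, Krt15 and Krt17 missed the minimum are not among them. Of the 264, 241 kept their direction and their side of the thresholds, 8 fell below a threshold and 6 became called. Among these 6, those of Krt8 in adenine and Krt7 in UUO, and 1 of Krt18 in adenine, came from dropping the fold threshold. A log2 ratio of mean FPKM was counted as kept by its distance from the main value. In 5 alternatives the sign changed, all 5 of them for Krt7 in the adenine model. That fold change was -0.28 under median-of-ratios scaling, -0.064 without adenine rat 2 and -0.11 without control rat 2, each of the last 2 in both fits with that rat left out, and leaving out single rats gave -0.11 to 0.13. The remaining 4 were the log2 ratios of mean FPKM of the basal keratins in UUO, which were 10.3 for Krt5, 9.24 for Krt14, 9.31 for Krt15 and 9.23 for Krt17. The number of members called in the adenine model was 0 and became 1 with FPKM rescaled to the same sum (Krt18), 1 with no filter (Krt17) and 2 with no fold threshold, and leaving out single rats gave 0 to 1, the 1 being Krt18 without adenine rat 2. In UUO 7 were called, 4 with median-of-ratios scaling, and 2 to 7 when single rats were left out. The low end, 2 without UUO rat 2 and 3 without UUO rat 1 or 3, came mostly from the filter, since Krt5, Krt14, Krt15 and Krt17 no longer reached 0.5 FPKM in 3 samples. Without UUO rat 2 Krt19 was lost as well, by its fold (1.84). With the same entries tested the range was 6 to 7. Members whose change differed between the models numbered 1, and 5 with no filter or 3 with no fold threshold, and 1 whichever rat was left out. Over all entries, 1604 of 2360 calls were upward in adenine and 1980 of 2613 in UUO, and 1311 of 2268 and 1249 of 2203 under median-of-ratios scaling. Deviations of rats that share a number across groups were weakly correlated, at -0.12 to -0.049 in adenine and 0.050 to 0.105 in UUO. In UUO these correlations were all above those of differently numbered rats (-0.078 to 0.016). A replicate block left the member counts at 0, 7 and 1. With depth unknown, values below the minimum, such as those of Krt13 and Krt20, cannot be told from absence.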
